A study of Mus musculus with 10 samples.

Results

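The 9 genes described here encode the main enzymes of the hepatic methionine cycle and the neighbouring one-carbon reactions: Mat1a, Gnmt, Pemt, Ahcy, Bhmt, Bhmt2, Cbs, Mthfd1 and Shmt1. Every probe set whose platform annotation gives exactly 1 gene symbol equal to one of these names was taken, whatever its level, which gave 16 of the 45101 probe sets on the array. The 9 genes are among 18193 that the annotation names in this way. Liver RNA came from 10 female mice, with 1 array per animal. In 5 of them human APOE3 stood in place of both mouse Apoe copies (B6.129P2-Apoetm2(APOE*3)Mae N8), and in the other 5 human APOE4 did (B6.129P2-Apoetm3(APOE*4)Mae N8). The human alleles encode isoforms of apolipoprotein E, which is carried on lipoproteins and takes part in their uptake by the liver. They were driven by the mouse Apoe promoter. All 10 mice therefore lacked mouse apolipoprotein E, and no animal with its own Apoe gene was analysed here. The mice were on a C57BL/6 background and 3 months old. All had eaten a diet in which milk fat supplied 41% of the energy, with 2 g/kg cholesterol, for 6 weeks by the design text and 2 months by the growth protocol. Each liver was extracted once, so a group's spread is that between 5 separate animals.

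Hepatocytes run the methionine cycle at a high rate. Methionine is converted to S-adenosylmethionine, the methyl donor of the cell. After the methyl group has been handed on, S-adenosylhomocysteine is left and is split to homocysteine. Homocysteine is either remethylated to methionine, with a methyl group from betaine or from folate, or leaves the cycle towards cysteine. In the liver the methylation of phosphatidylethanolamine to phosphatidylcholine, a lipid that very low density lipoproteins need, is among the large consumers of S-adenosylmethionine.

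The values are GCRMA values on the log2 scale, on which 1 unit is a factor of 2. The array medians lay between 2.61 and 2.67, and arrays of the same genotype correlated at 0.970 to 0.990 across the 14732 tested probe sets. A probe set was tested where its values averaged 4 or more across the 10 arrays. The hepatocyte markers checked had high values on all arrays, for example Alb, the serum albumin gene, at a mean of 14.46 in APOE3 and 14.48 in APOE4. All 5 cholangiocyte markers on the array and 5 of 6 exocrine pancreas markers had means under 4, the exception being Cela1. So had 1 periportal hepatocyte marker, Ass1, and 1 pericentral marker, Axin2.

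None of the 9 genes differed between APOE4 and APOE3 livers past the adjusted threshold. In limma, with Benjamini-Hochberg adjustment over all tested probe sets and a threshold of 0.05, 0 of 16 member probe sets passed. Among all 14732 tested probe sets 0.0815% passed, 0.0339% as higher and 0.0475% as lower in APOE4. At an unadjusted p under 0.05 there was 1 of the 16, that of Pemt, against 8% of all tested probe sets. All 16 passed the filter on low values. The adjusted p-values of the 16 in limma ran from 0.59 to 0.97. With each gene represented by its probe set with the highest mean, 4 genes were positive and 5 negative in APOE4 minus APOE3. Their median difference was -0.08 log2, beside a median of 0.05 and 60.9% positive among all tested probe sets. The 95% intervals of the 9 fold differences lay between 0.748-fold and 1.54-fold. In 0 of the 16 probe sets did the 5 APOE4 values and the 5 APOE3 values fail to overlap, which they did in 2.02% of all tested probe sets.

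**Figure D1:**
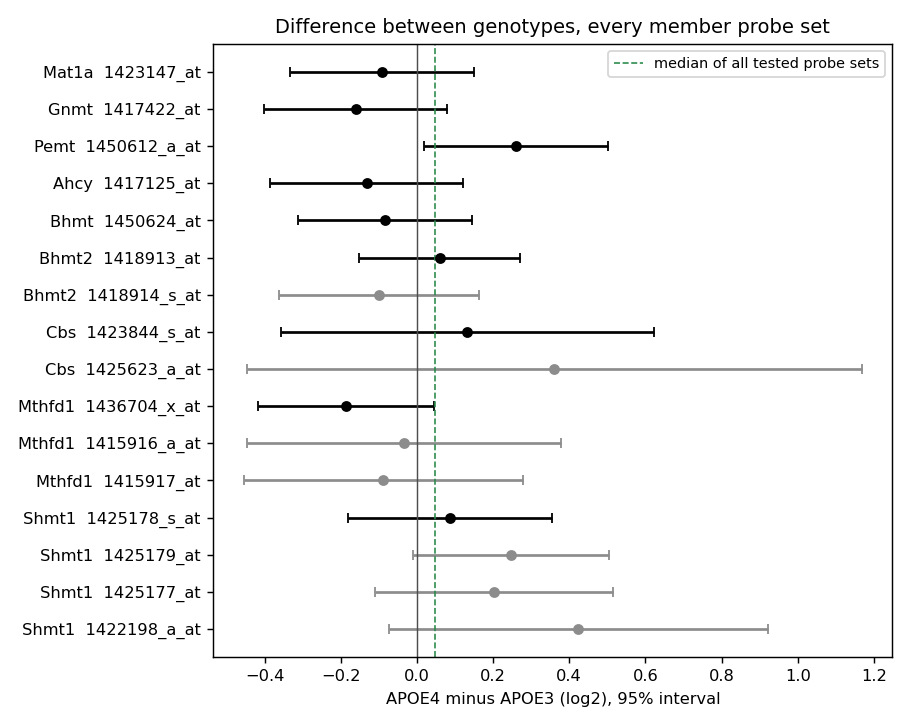
Difference between genotypes (APOE4 minus APOE3, log2, horizontal axis) for each of the 16 probe sets, with 95% intervals from limma on 5 against 5 livers; black marks the probe set that represents a gene, grey the others, and the dashed line the median of all tested probe sets. Only the interval of Pemt lies wholly above 0, and the widest is that of Cbs probe set 1425623_a_at.

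Among the enzymes that make and use S-adenosylmethionine, no difference between genotypes passed the test. Mat1a, the methionine adenosyltransferase of the adult liver, read 13.17, 13.32, 13.49, 13.56 and 13.52 in APOE3 replicates 1 to 5 and 13.18, 13.28, 13.50, 13.18 and 13.47 in APOE4 replicates 1 to 5. The groups overlapped almost completely, and replicate 1 was the lowest APOE3 liver. The difference was -0.09 log2 (SE 0.11, 95% interval -0.33 to 0.15, adjusted p = 0.86 in limma). Without 1 animal it ran from -0.15 (APOE3 replicate 1) to -0.055 (APOE3 replicate 4). Gnmt, the glycine N-methyltransferase that disposes of surplus S-adenosylmethionine by methylating glycine, was at 13.19 ± 0.11 in APOE3 and 13.03 ± 0.19 in APOE4 (SD, n = 5 each). Its APOE3 values were 13.06, 13.14, 13.16, 13.26 and 13.35, and its APOE4 values 12.95, 12.86, 13.21, 12.88 and 13.26. Replicates 1, 2 and 4 of APOE4 lay below every APOE3 liver, and replicates 3 and 5 lay among them. The difference of -0.16 log2 (SE 0.11, 95% interval -0.40 to 0.08) did not pass (adjusted p = 0.72 in limma).

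Ahcy encodes the hydrolase that splits S-adenosylhomocysteine, which otherwise inhibits methyltransferases. Its APOE3 values were 12.86, 13.04, 13.18, 13.24 and 13.21, and its APOE4 values 12.70, 12.94, 13.10, 12.94 and 13.18. Replicate 1 was the lowest liver of both genotypes. The difference was -0.13 log2 (SE 0.12, 95% interval -0.39 to 0.12, adjusted p = 0.79 in limma), and -0.064 without APOE4 replicate 1. The sequences upstream of Gnmt and Ahcy are shown because their levels correlated with that of Mat1a over the livers, as described further on with the limits of that result. Sequences are from RefSeq (GRCm38.p6), the table of which held 8 of the 9 genes and lacked Mat1a. They run 5′ to 3′ on the gene's strand up to the outermost annotated start of the gene. The Gnmt window is chr17:46729212-46729415 and the Ahcy window chr2:155074498-155074747, both on the minus strand. Capitals mark matches on either strand to GGGCGG (the GC box), CCAAT (the CCAAT box), TATAAA (the TATA box), CACGTG (an E-box) or AGGTCA (a core bound by nuclear receptors). The motifs were chosen with these sequences in view.
Gnmt: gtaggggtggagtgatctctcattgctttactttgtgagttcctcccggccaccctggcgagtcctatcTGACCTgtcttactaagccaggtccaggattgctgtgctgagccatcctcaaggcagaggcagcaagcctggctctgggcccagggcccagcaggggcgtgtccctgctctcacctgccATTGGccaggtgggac
Ahcy: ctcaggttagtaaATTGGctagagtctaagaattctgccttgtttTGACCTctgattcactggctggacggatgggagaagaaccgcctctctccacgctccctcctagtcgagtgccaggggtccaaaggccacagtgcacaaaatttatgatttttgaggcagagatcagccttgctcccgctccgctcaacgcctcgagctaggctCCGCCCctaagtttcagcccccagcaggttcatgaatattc
Both windows held a CCAAT and an AGGTCA match on the opposite strand, and that of Ahcy also a GC box. In windows of 250 bases before all 32851 starts of the table, CCAAT was found in 33.8%, GGGCGG in 32.7%, AGGTCA in 14.0%, TATAAA in 12.4% and CACGTG in 6.02%. The Gnmt window is shorter than these, at 204 bases, because bases inside the annotated gene were left out. A match describes the letters only.

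**Figure D2:**
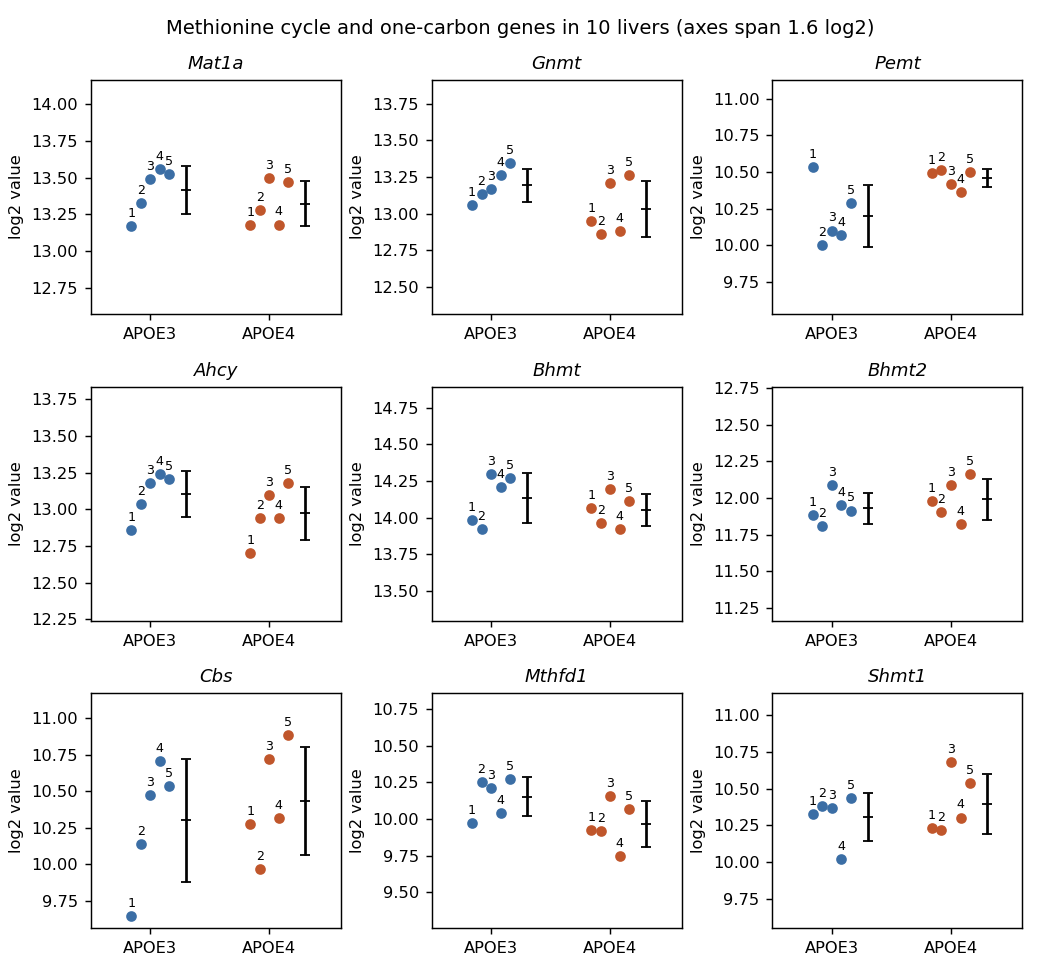
Log2 value of each of the 9 genes (vertical axes, each spanning 1.6 log2 around the gene's mean) in 5 APOE3 and 5 APOE4 livers; points are animals labelled by replicate number, and bars are the mean and SD of a genotype. The genotypes overlap in all 9 panels, Pemt overlaps only through APOE3 replicate 1, and Cbs is the most spread.

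Pemt, the phosphatidylethanolamine N-methyltransferase that uses S-adenosylmethionine to make phosphatidylcholine, had the smallest p of the 9 genes. It read 10.53, 10.005, 10.10, 10.07 and 10.29 in APOE3 replicates 1 to 5 and 10.49, 10.51, 10.42, 10.37 and 10.50 in APOE4 replicates 1 to 5. All 5 APOE4 livers lay above 4 of the 5 APOE3 livers, while APOE3 replicate 1 was the highest of all 10. The means were 10.20 ± 0.21 in APOE3 and 10.46 ± 0.06 in APOE4 (SD, n = 5 each). The difference was 0.26 log2 (SE 0.11, 95% interval 0.02 to 0.50), a 1.20-fold mean difference. It did not pass the adjusted threshold in limma (unadjusted p = 0.038, adjusted p = 0.59). Without APOE3 replicate 1 the difference was 0.34 log2, and it still did not pass (adjusted p = 0.28 in limma). Over all fits that left out 1 animal it lay between 0.21 and 0.34. Pemt has 1 probe set on this array.

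Bhmt and Bhmt2 are neighbouring genes on chromosome 13. Bhmt encodes the methyltransferase that remethylates homocysteine with betaine, the oxidation product of choline, and Bhmt2 a related enzyme that takes the methyl group from S-methylmethionine. Bhmt read 13.99, 13.93, 14.30, 14.21 and 14.27 in APOE3 and 14.07, 13.96, 14.20, 13.93 and 14.11 in APOE4. APOE3 replicates 3, 4 and 5 were the highest of the 10 livers, and the remaining values were intermixed. The difference was -0.08 log2 (SE 0.10, 95% interval -0.31 to 0.15, adjusted p = 0.86 in limma). Leaving out 1 animal moved it between -0.044 (APOE3 replicate 3) and -0.14 (APOE3 replicate 2). The mean of Bhmt stood above 99.9% of tested probe sets, and how far the scale is compressed so near its top was not tested. Bhmt2 was at 11.93 ± 0.10 in APOE3 and 11.99 ± 0.14 in APOE4 (SD, n = 5 each), ranging from 11.81 to 12.09 and from 11.82 to 12.16. The difference was 0.06 log2 (SE 0.10, adjusted p = 0.90 in limma), and from 0.017 (without APOE4 replicate 5) to 0.10 (without APOE4 replicate 4) with 1 animal left out. Its second probe set, 1418914_s_at, stood at -0.10 (SE 0.12), and the average of the pair of probe sets at -0.02, so the sign of the Bhmt2 difference depended on the probe set. The upstream windows of this gene pair are shown because the genes lie side by side. That of Bhmt is chr13:93637759-93638008 and that of Bhmt2 chr13:93674303-93674552, both on the minus strand, with capitals as above.
Bhmt: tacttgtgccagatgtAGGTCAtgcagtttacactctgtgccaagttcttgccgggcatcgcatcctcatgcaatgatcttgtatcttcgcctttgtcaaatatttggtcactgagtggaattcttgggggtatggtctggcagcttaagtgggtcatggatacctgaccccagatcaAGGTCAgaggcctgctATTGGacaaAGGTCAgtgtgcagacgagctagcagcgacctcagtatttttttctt
Bhmt2: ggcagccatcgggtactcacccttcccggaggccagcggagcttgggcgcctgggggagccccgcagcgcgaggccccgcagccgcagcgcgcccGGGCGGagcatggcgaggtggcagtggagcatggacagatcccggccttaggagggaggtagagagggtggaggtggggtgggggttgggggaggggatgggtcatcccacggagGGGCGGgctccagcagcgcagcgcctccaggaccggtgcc
The Bhmt window held 3 AGGTCA matches and a CCAAT match, with 48% G and C and 5 CpG dinucleotides. The Bhmt2 window held GC boxes at 2 places and no match to the other motifs, with 74% G and C and 20 CpG dinucleotides. The median over all windows of the table was 52.4% G and C.

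Cbs, the cystathionine beta-synthase that takes homocysteine out of the cycle towards cysteine, varied most between animals. Its representative probe set read 9.65, 10.14, 10.47, 10.71 and 10.53 in APOE3 and 10.27, 9.97, 10.72, 10.32 and 10.88 in APOE4. From the lowest liver, APOE3 replicate 1, to the highest, APOE4 replicate 5, this was a 2.35-fold range. By its other probe set, 1425623_a_at, the same livers were lowest and highest, at 7.24 and 9.45, a 4.63-fold range. The probe sets followed each other closely, with r = 0.98 over the 10 arrays once genotype means were removed. The SD within genotype was 0.39 and 0.67 log2, above that of 84.1% and 96.7% of tested probe sets. For the representative probe sets of the other 8 genes it was below the median of all tested probe sets, 0.23. The Cbs differences were 0.13 log2 (SE 0.22, 95% interval -0.36 to 0.62, adjusted p = 0.90 in limma) and 0.36 log2 (SE 0.37, adjusted p = 0.82). Without APOE3 replicate 1 the former became -0.03, so 1 animal set its sign. The array of this animal had the lowest of the limma array weights, 0.57, and with these weights the former was 0.10. With 1 array per animal, the animal and its array cannot be told apart. As for Gnmt and Ahcy, the window upstream of Cbs is shown because the Cbs level correlated with that of Mat1a, with the limits given further on. The window is chr17:31637234-31637455 on the minus strand.
Cbs: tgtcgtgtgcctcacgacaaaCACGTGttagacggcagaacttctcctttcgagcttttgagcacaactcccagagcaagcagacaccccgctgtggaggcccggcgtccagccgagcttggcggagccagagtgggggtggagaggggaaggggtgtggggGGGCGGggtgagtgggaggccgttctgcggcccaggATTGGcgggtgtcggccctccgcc
It held an E-box, a GC box and a CCAAT match, with 66.2% G and C over 222 bases.

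The enzymes that charge folate with one-carbon units were measured by several probe sets each. Mthfd1, the cytosolic trifunctional enzyme that interconverts folate one-carbon units, read 9.98, 10.25, 10.21, 10.04 and 10.27 in APOE3 and 9.92, 9.92, 10.16, 9.75 and 10.07 in APOE4 by its representative probe set. All 5 APOE4 livers lay below the APOE3 median, and 2 of them, replicates 3 and 5, lay within the APOE3 range. The difference was -0.19 log2 (SE 0.11, 95% interval -0.42 to 0.04, adjusted p = 0.68 in limma). The remaining Mthfd1 probe sets, 1415916_a_at and 1415917_at, were at -0.03 (SE 0.19) and -0.09 (SE 0.17). All Mthfd1 probe sets were thus on the negative side, none with an interval that left out 0.

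Shmt1, the cytosolic serine hydroxymethyltransferase that moves a carbon from serine to folate, had 4 probe sets, all on the positive side. The representative one read 10.33, 10.38, 10.37, 10.02 and 10.44 in APOE3 and 10.23, 10.22, 10.68, 10.30 and 10.54 in APOE4. Its difference was 0.09 log2 (SE 0.12, adjusted p = 0.88 in limma). It was 0.014 without APOE3 replicate 4 and 0.015 without APOE4 replicate 3. The others were at 0.25 (1425179_at, SE 0.12, unadjusted p = 0.059), 0.20 (1425177_at, SE 0.14) and 0.42 (1422198_a_at, SE 0.23, unadjusted p = 0.088), with adjusted p-values of 0.63 to 0.73 in limma. Probe sets of 1 gene share their transcripts and animals and are not separate evidence. They followed each other unevenly: the representative probe set had r = 0.91 with 1425177_at but 0.19 with 1422198_a_at over the 10 arrays, genotype means removed.

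In each liver between 6 and 9 of the 9 genes lay on the same side of their genotype means. In APOE4 replicate 5 all 9 genes lay above their genotype mean, and in APOE4 replicate 4 all 9 lay below it. In APOE4 replicate 3 and APOE3 replicate 5, 8 of 9 were above. In APOE4 replicate 2, 8 of 9 were below, and in APOE3 replicates 1 and 2 and APOE4 replicate 1, 7 of 9. APOE3 replicate 3 had 7 of 9 above, and APOE3 replicate 4 was the most mixed, with 6 above and 3 below. Of all tested probe sets, between 45.4% and 54.8% lay above the genotype mean in any 1 liver. The largest single deviations were those of Cbs, at -0.65 log2 in APOE3 replicate 1, -0.46 in APOE4 replicate 2 and 0.45 in APOE4 replicate 5. Deviations of Mat1a and Ahcy in APOE3 replicate 1 were -0.24 and -0.25 log2, while that of Pemt in this liver was 0.33.

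**Figure D3:**
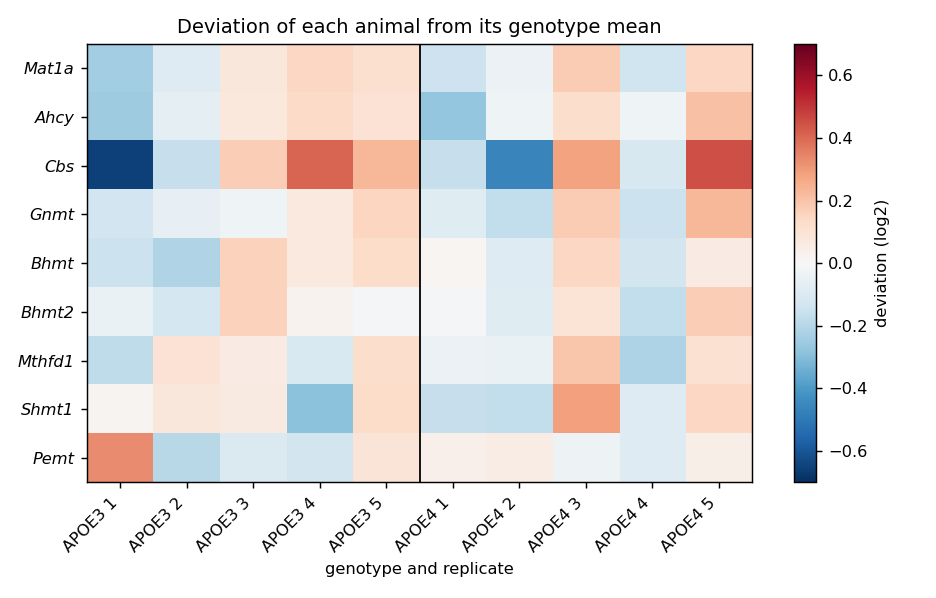
Deviation of each liver from the mean of its genotype (colour, log2, red above and blue below) for the 9 genes in rows and the 10 animals in columns; the black line parts APOE3 from APOE4. Columns of APOE4 replicates 3 and 5 are red in 8 and 9 of the 9 genes, and that of APOE4 replicate 4 is blue in all 9. Pemt lies opposite to most genes in APOE3 replicate 1 and, by less, in APOE3 replicates 3 and 4 and APOE4 replicates 1, 2 and 3.

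Correlations were computed for all 36 pairs of the 9 genes over the 10 livers after the genotype means had been removed. Permutation tests used 100000 resamples within genotype, two-sided, with Benjamini-Hochberg adjustment over the 36 pairs. By Pearson's r 6 pairs passed at 0.05, and by Spearman's rho 3 of these. As background, an r at or above the lowest of the 6 was found in 7 of the 36 pairs (19.4%), in 1.04% of all 108508546 pairs of tested probe sets and in 1.70% of pairs with means of at least 10. The 36 pairs share 9 genes, so they are not independent, and whether the count is particular to these genes was not tested. Mat1a and Ahcy, whose enzymes act before and after the methyl transfer, had the highest r at 0.92 (rho = 0.94, permutation p = 0.00077 and 0.00039, adjusted p = 0.027 and 0.014). Without the 2 livers farthest from the Mat1a median r was 0.89. Gnmt and Cbs had r = 0.86 (rho = 0.85, permutation p = 0.0015 and 0.0018, adjusted p = 0.027 and 0.032), and r = 0.82 without the 2 farthest livers. Ahcy and Cbs had r = 0.84 (rho = 0.88, permutation p = 0.0045 and 0.0040, adjusted p = 0.032 and 0.048), and 0.91 without the 2 farthest. The pairs that passed by Pearson's r alone were Mat1a with Cbs (r = 0.89, rho = 0.85, permutation p = 0.0036 and 0.0068, adjusted p = 0.032 and 0.059), Bhmt with Bhmt2 (r = 0.80, rho = 0.77, permutation p = 0.0038 and 0.0082, adjusted p = 0.032 and 0.059) and Mat1a with Gnmt (r = 0.85, rho = 0.82, permutation p = 0.0067 and 0.018, adjusted p = 0.040 and 0.080). Without the 2 farthest livers their r was 0.83, 0.80 and 0.82. The 2 probe sets of Bhmt2 had r = 0.57 with each other, genotype means removed, which is below the r of Bhmt with Bhmt2.

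The positive sign was common to pairs that did not pass. All 28 pairs without Pemt had a positive r, from 0.27 to 0.92 with a median of 0.68. Over all 36 pairs 83.3% were positive with a median r of 0.56, while over all pairs of tested probe sets 50.3% were positive with a median of 0.003. The 8 pairs with Pemt ran from -0.49 to 0.10, and the smallest adjusted p among them was 0.33 by the permutation test. All pairs share the same 10 arrays. Without any 1 of the 10 animals, 0 to 3 pairs passed, and none passed without APOE3 replicates 1, 2 or 3 or without APOE4 replicate 4. With the values normalized again by quantiles no pair passed (smallest adjusted p = 0.057 by the permutation test, 13 pairs at an unadjusted p under 0.05), and with all probe sets of a gene averaged 17 did. The r of Mat1a with Ahcy stayed between 0.88 and 0.96 over the 14 alternatives.

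Beside these genes, the list mean of the hepatocyte markers lay on the members' side of its genotype mean in every liver, though single markers did not. The mean deviation of the 8 hepatocyte markers on the array had the sign of the members' mean deviation in 10 of 10 livers. The same held for the means of the 6 periportal and the 8 pericentral markers, which come from hepatocytes at either end of the lobule. Ass1 and Axin2, both with means under 4, are among them. In APOE4 replicate 4 and APOE3 replicate 2, Hnf4a, Tat and Cps1 of the hepatocyte list lay below their genotype means. Alb, Ttr, Apoa1, Fgb and Ahsg lay above in both. Tat deviated most in both, at 10.04 beside a genotype mean of 10.52 and at 9.83 beside 10.72. It also had the widest spread of the list, with an SD of 0.81 in APOE3 and 0.68 in APOE4. How far the sign of the list mean rests on Tat was not tested. In APOE3 replicate 1 the 9 genes averaged -0.14 log2, the hepatocyte markers -0.30, the periportal markers -0.25 and the pericentral markers -0.33. In APOE4 replicate 3 these means were 0.16, 0.13, 0.22 and 0.16. The stellate cell and fibroblast markers had the opposite sign to the members in 9 of 10 livers, the sinusoidal endothelial markers in 8 and the Kupffer cell markers in 7. The 6 exocrine pancreas markers, mostly under 4, had the members' sign in 8 livers. Other gene lists of the pathway did not all follow: the salvage and polyamine list had the opposite sign in 8 of 10 livers, and the glycine, serine and choline list in 6. The Kupffer cell list stood highest in APOE3 replicate 4, at 1.30 log2 above its genotype mean. In APOE4 replicates 1 and 5 the stellate cell markers averaged 0.63 and -0.63 log2, and the 9 genes -0.09 and 0.17. That list did not move as a whole. Col3a1 swung most, at 10.46 and 5.93, and Col1a1, Col1a2, Acta2, Dcn and Pdgfrb went the same way. Lrat, Reln, Rgs5 and Des lay on the other side of their genotype means in both livers, Rgs5 and Des only slightly in replicate 5. In whole liver, fewer cells of a type and less RNA per cell cannot be told apart. The part of the cell makeup in the shared variation of the 9 genes was not tested.

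**Figure D4:**
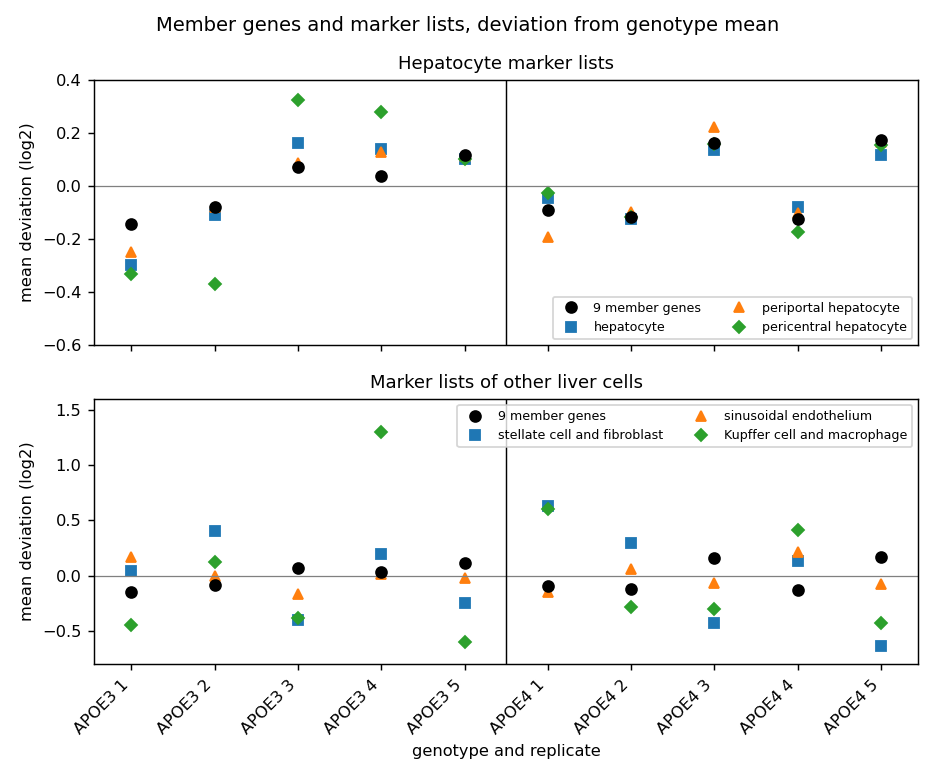
Mean deviation from the genotype mean (vertical axis, log2) of the 9 genes (black) and of marker lists in each of the 10 livers, with hepatocyte lists above and lists of other liver cells below; the vertical line parts the genotypes, and the vertical scales of the panels differ. The hepatocyte lists lie on the same side of 0 as the 9 genes in all 10 livers, the stellate cell and fibroblast list on the other side in 9.

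Between the genotypes the range of each of these lists' mean levels overlapped, though some lists leaned to 1 side. The mean level of the hepatocyte list ran from 12.90 to 13.36 in APOE3 and from 13.02 to 13.28 in APOE4. The stellate cell and fibroblast list ran from 6.80 to 7.60 and from 6.57 to 7.82. Of its 8 tested markers 3 were positive and 5 negative in APOE4 minus APOE3, with a median of -0.04. Lrat, a retinoid storage gene of stellate cells, was the highest of them at 0.75 log2 (SE 0.21, unadjusted p = 0.0038, adjusted p = 0.45 in limma). The Kupffer cell markers were negative in APOE4 minus APOE3 in 11 of 12, with a median of -0.22. Their mean level ran from 8.01 to 9.91 in APOE3 and from 7.83 to 8.86 in APOE4. The 9.91 was that of APOE3 replicate 4 alone, and the other APOE3 livers ran from 8.01 to 8.73. How far this lean rests on that animal was not tested. The periportal markers were negative in 5 of 5 tested and the pericentral ones in 6 of 7, with medians of -0.07 and -0.13. None of these markers passed the adjusted threshold, and their part in the differences of the 9 genes was not tested. As signs of RNA integrity, the 3′ minus 5′ difference of the beta-actin control probe sets was 2.22 to 3.20 in APOE3 and 2.46 to 2.97 in APOE4. That of Gapdh was 0.203 to 0.729 and 0.299 to 0.617. The array medians separated by genotype: they were 2.638 to 2.671 in APOE3 and 2.613 to 2.637 in APOE4, without overlap. With arrays centred on their medians, 0 of the 9 genes passed.

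For each member the gene with the most similar course over the 10 livers was looked up among about 13350 named tested probe sets, by Pearson's r with genotype means removed. These are the highest of many values and are a description without a test. Mat1a was most like Cct2 (r = 0.98, rho = 0.93), a subunit gene of a cytosolic chaperonin. Pemt was most like Commd3 (r = 0.99, rho = 0.99), Bhmt like Mfsd2a (r = 0.98, rho = 0.99) and Cbs like Alkbh1 (r = 0.97, rho = 0.95). Ahcy was most like Mfn1 (r = 0.97, rho = 0.99), a gene of mitochondrial fusion, and Gnmt like Tmem115 (r = 0.96, rho = 0.93). For Shmt1, Bhmt2 and Mthfd1 the genes were Edc3 (r = 0.94, rho = 0.94), Eml3 (r = 0.94, rho = 0.98) and Inpp5b (r = 0.94, rho = 0.89). No member was another's closest match.

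No gene of the wider pathway passed the adjusted threshold either. Of 73 genes on 7 lists around the 9 members, 64 were named by 1 symbol on the array and 55 were tested. In limma 0 passed in either direction, beside the 0.0815% of all tested probe sets. At an unadjusted p under 0.05 there were 3 of 55, beside 8% of all. The differences were positive in 29 and negative in 26, with a median of 0.05 log2, the same as over all tested probe sets (0.05). The groups did not overlap for 1 of the 55 genes, beside 2.02% of all tested probe sets.

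The 3 genes at an unadjusted p under 0.05 lie in the salvage of methionine, in polyamine synthesis and in cobalamin handling. Odc1, the ornithine decarboxylase that opens polyamine synthesis, read 10.56, 10.50, 10.42, 10.27 and 10.62 in APOE3 and 10.30, 10.22, 10.26, 9.96 and 9.92 in APOE4. Only the lowest APOE3 liver and the highest APOE4 liver overlapped. The difference was -0.34 log2 (SE 0.11, unadjusted p = 0.010, adjusted p = 0.54 in limma). Mtap, which starts the return of methylthioadenosine from polyamine synthesis to methionine, was at 8.21 ± 0.22 in APOE3 and 8.56 ± 0.15 in APOE4 (SD, n = 5 each). Its difference was 0.34 log2 (SE 0.12, unadjusted p = 0.017, adjusted p = 0.58 in limma). Mmadhc, a cobalamin trafficking gene that serves methionine synthase, was at 9.69 ± 0.24 and 9.99 ± 0.15 (SD, n = 5 each), a difference of 0.30 log2 (SE 0.13, unadjusted p = 0.0405, adjusted p = 0.60 in limma). In this salvage and polyamine list, 5 of 8 tested genes were positive, with a median of 0.07. Srm, the spermidine synthase gene, was at 0.35 (SE 0.25).

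Genes that share the methyl donor with Gnmt and Pemt did not pass either. Of 6 tested methyltransferases of small molecules, 2 were positive and 4 negative, with a median of -0.08. Nnmt, which methylates nicotinamide, stood at -0.57 log2 (SE 0.37, adjusted p = 0.72 in limma) and had the widest spread of those named. It read 11.38, 11.82, 12.69, 12.70 and 12.78 in APOE3 and 11.38, 10.77, 12.47, 11.48 and 12.42 in APOE4, so APOE3 replicate 1 was the lowest of its genotype, as for Mat1a, and APOE4 replicate 2 the lowest of all. Gamt, which makes creatine, and Hnmt, which inactivates histamine, were at 0.12 (SE 0.19) and -0.23 (SE 0.24). Among the 6 tested genes of methionine supply, S-adenosylhomocysteine handling and remethylation, 3 were positive and 3 negative, with a median of 0.00. Ahcyl2, a relative of Ahcy, was at -0.22 (SE 0.15) and Mat2b, a regulatory subunit of methionine adenosyltransferase, at -0.11 (SE 0.19). Mtr, the methionine synthase gene, and Mtrr, its reductase, had mean values under 4 and were not tested.

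**Figure D5:**
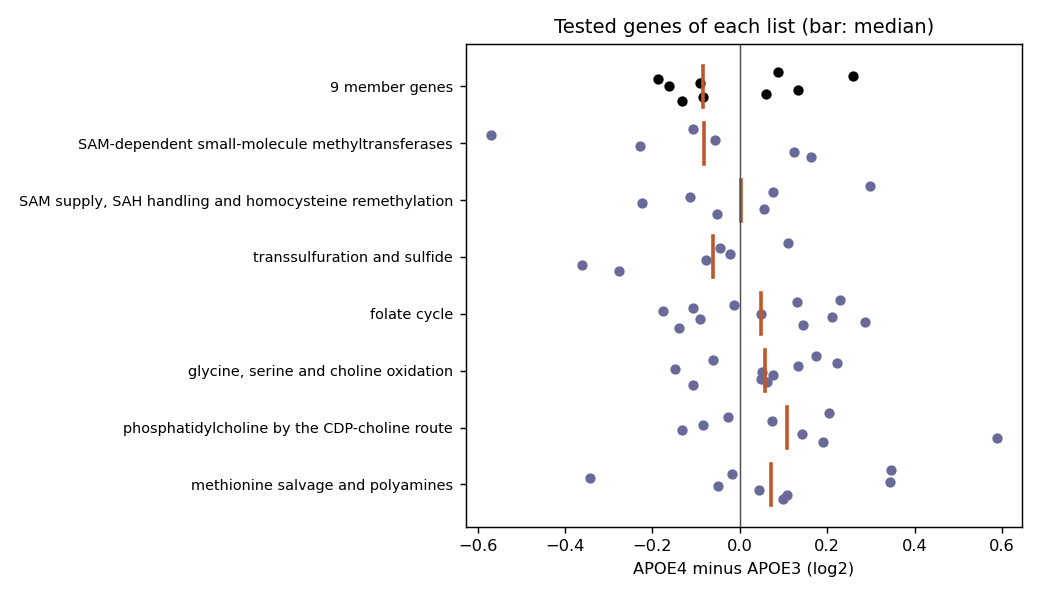
Difference between genotypes (APOE4 minus APOE3, log2, horizontal axis) for each tested gene of the 9 members and of the 7 lists around them; points are genes, and the bar is the list median. The medians of all 8 rows lie between -0.08 and 0.11, and 0 genes passed the adjusted threshold.

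In transsulfuration and sulfide oxidation, downstream of Cbs, 1 of 6 tested genes was positive and 5 were negative, with a median of -0.06. Cth, the cystathionine gamma-lyase that completes the path to cysteine, was at -0.28 log2 (SE 0.22) and Ethe1, the mitochondrial persulfide dioxygenase, at -0.36 (SE 0.26). The rhodanese gene Tst was at 0.11 (SE 0.12). In the folate list 6 of 11 tested genes were positive, with a median of 0.05. The folate transporter gene Slc46a1 was at 0.23 (SE 0.12), Fpgs, which adds glutamate tails to folate, at 0.29 (SE 0.26) and the purine synthesis gene Gart at 0.21 (SE 0.14). Among the folate genes 5 had a mean under 4, the mitochondrial Mthfd2 among them.

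On the choline side, the list of glycine, serine and choline oxidation had 7 of 10 tested genes positive and a median of 0.06. Pipox, which oxidizes sarcosine, the product of Gnmt, was at 0.13 (SE 0.10), the serine synthesis gene Psph at 0.22 (SE 0.18) and the choline transporter gene Slc44a1 at 0.18 (SE 0.16). The CDP-choline route is the alternative to Pemt for making phosphatidylcholine. Its list also holds Pcyt2, Etnk1 and Pisd, which serve phosphatidylethanolamine synthesis and not that route. In this mixed list 5 of 8 tested genes were positive, with a median of 0.11. Pisd, which makes phosphatidylethanolamine in mitochondria, was the 1 gene whose groups did not overlap, at 4.92 ± 0.14 in APOE3 and 5.13 ± 0.08 in APOE4 (SD, n = 5 each). Its values ran from 4.68 to 5.0474 and from 5.0480 to 5.22, so the groups all but touched. The difference was 0.20 log2 (SE 0.09, adjusted p = 0.63 in limma) at a low level. Chka, the choline kinase gene, was at 0.59 (SE 0.51) with values from 5.69 to 8.39, and Cept1, which joins choline or ethanolamine to diacylglycerol, at 0.19 (SE 0.12).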

How the data were processed

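Liver RNA of 10 mice was measured on Affymetrix arrays. The authors' deposited numbers are log2 values per probe set, computed by GCRMA 2.12.1 under R 2.7.1 (per the submitters' processing notes), a method that models background from probe sequence. A probe filter is not stated in the labels used here.

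Groups and replicate numbers came from the sample titles. In the platform annotation 34945 probe sets carried 1 symbol, 932 carried several and 9160 had no symbol, and 64 control probe sets were left out. limma 3.58.1 (R 4.3.3, lmFit followed by eBayes, two-sided, without covariates) was run on the 14732 probe sets whose mean was at least 4, and p-values were adjusted over all of them by the Benjamini-Hochberg method. The fit was tested on simulated data with 5 against 5 arrays and 50 changed probe sets of each size. It recovered 46% of changes of 0.5 log2 and 76% of changes of 1 log2, with 13 false calls. Many differences of the size seen here would thus be missed. Arrays within a genotype shared at most 7 identical values of 45037. Scan dates and slides were not used here.

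The members, gene lists and rules were chosen with earlier results of these data known. All probe sets of the 9 genes are described. Of each pathway list the genes past the adjusted threshold are named, or, with none past it, the 3 of lowest p, each by its probe set with the highest mean, and for each member the 1 gene most like it. Mtr, Mtrr and Mthfd2, which were not tested, and markers beside a result are named as well.

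Alternatives were no filter, a mean of at least 6, eBayes with trend or robust settings, array weights, quantile normalization, median centring, values under 4 set to 4, the mean of a gene's probe sets, a replicate block, genotype means kept (pairs) and leaving out each animal. The correlations of all pairs of tested probe sets, and of those with a mean of at least 10, were added after seeing the data as a background for the member pairs. Promoter windows came from RefSeq (GRCm38.p6). Figures were drawn with matplotlib 3.10.9.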

Additional observations from a re-analysis of the deposited data

Results flagged for a closer look

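Shmt1 in APOE3 replicate 4 stood far from the other APOE3 livers by probe set 1425178_s_at. Its value was 10.02 log2, and the nearest other APOE3 liver was at 10.33, a gap of 0.736 of the group's range against a critical value of 0.71 for 5 samples. Of 32 groups of 5 values checked in this way 1 stood out, and chance gives about 1 in 20. Without this animal the Shmt1 difference was 0.014 log2.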

How the results depend on the processing

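The count of member genes past the adjusted threshold in limma was 0 under all 10 other settings and all 10 fits without 1 animal, and so was the count of pathway genes. Their counts at an unadjusted p under 0.05 were 0 or 1 and 2 to 6. The median member difference ran from -0.09 to -0.05 over the other settings and from -0.12 to -0.04 without 1 animal. Over all tested probe sets 12 passed, 5 with a mean of at least 6 (9648 tested) and 7 with probe sets of a gene averaged (8535 tested); without 1 animal 8 to 14 passed. The sign turned for Bhmt2 with probe sets averaged (-0.020) and for Cbs without APOE3 replicate 1 (-0.031; without 1 animal Cbs ran from -0.031 to 0.25). The 6 correlated pairs became 0 with quantile normalization, 17 with probe sets averaged and 0 to 3 without 1 animal; they were 6 with centring and with genotype means kept. Same-numbered animals of the 2 genotypes correlated at -0.08 to 0.41 in their deviations, and 2 of 5 APOE3 animals correlated best with their own number, so the numbers were not taken as pairs. With the replicate number as a block, 0 member genes, 0 pathway genes and 11 probe sets passed, and the median member difference was -0.08. The number of arrays limits the precision, and values near the floor of the scale have no order.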
